A study of Mus musculus with 6 samples.

Results

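Fatty acids and triglycerides are built in the liver by a chain of enzymes, and 32 genes of that chain were followed in liver tumors and normal livers of C3H mice, a strain whose males develop liver tumors spontaneously. The genes were chosen by function, without desaturases, and with earlier results of these data known. They comprise the supply of acetyl-CoA and NADPH, the synthesis and elongation of fatty acids, their activation to acyl-CoA, the assembly of triglycerides and 3 regulators. Each of the 32 genes was on the array, by 47 probes of 55681, and 31 gave enough signal to be tested, among 18567 genes tested in all. Total RNA came from 3 normal livers and 3 macroscopic liver tumors carrying a Ha-ras mutation, all from male C3H/HeN mice of 74 to 75 weeks. The mice were F2 offspring in the control arm of a project on arsenic exposure during gestation, and ate a standard diet. Each sample was hybridised alone to an Agilent array that measures 1 dye, Cy3.

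In this pathway citrate leaves the mitochondrion through Slc25a1 and is split by Acly into acetyl-CoA. Acaca and Acacb carboxylate acetyl-CoA to malonyl-CoA, from which Fasn makes palmitate, and the Elovl enzymes lengthen the chain. Acyl-CoA synthetases activate fatty acids, and Gpam, the Agpat acyltransferases and the Dgat enzymes add them stepwise to a glycerol backbone. Before the Dgat step, the lipins turn phosphatidic acid into diacylglycerol. The liver runs this program mainly in the fed state, and Srebf1, which encodes Srebp1c, and Mlxipl, which encodes ChREBP, are its best known transcription factors.

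An expression value is the background-subtracted signal divided by the 75th percentile of the array, so that 1 stands for the 75th percentile. A gene was called higher or lower where the limma test gave a Benjamini-Hochberg adjusted p under 0.05 over all probes tested, and fold changes are tumor over normal liver from that fit on the log2 scale. On the arrays with normal liver RNA 44.7 to 47.2% of probes were well above background, on those with tumor RNA 47.3 to 48.9%, and no spot was saturated. All normal livers lay on 1 slide and all liver tumors on another, with a local background of 42 to 45 against 22 to 23, so the slide cannot be told apart from the tissue for any value given here. With 3 samples a group, the number of arrays limits the precision. The labels do not say that the samples came from separate mice, so p-values measure the spread between these samples.

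Sequences of 3 up-regulated genes and of the regulator gene Mlxipl were read to show what lies before their starts. The lines hold the 250 bases upstream of a RefSeq transcript start on GRCm38.p6, in the direction of transcription, with matches in capitals to the CCAAT box (CCAAT), the E-box (CACGTG) or the core TCACNCCAC of a sterol response element, on either strand. Fasn lies at chr11:120824548-120824797 (minus strand), Gpam at chr19:55127239-55127488 (minus strand), Pnpla3 at chr15:84167566-84167815 (plus strand), and Mlxipl at chr5:135089640-135089889 and chr5:135106641-135106890 (plus strand).
Fasn: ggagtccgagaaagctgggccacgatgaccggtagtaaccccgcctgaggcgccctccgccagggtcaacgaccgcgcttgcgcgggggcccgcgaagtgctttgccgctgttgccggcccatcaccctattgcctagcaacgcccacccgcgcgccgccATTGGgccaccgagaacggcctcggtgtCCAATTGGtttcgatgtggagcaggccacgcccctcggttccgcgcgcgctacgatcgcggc
Gpam: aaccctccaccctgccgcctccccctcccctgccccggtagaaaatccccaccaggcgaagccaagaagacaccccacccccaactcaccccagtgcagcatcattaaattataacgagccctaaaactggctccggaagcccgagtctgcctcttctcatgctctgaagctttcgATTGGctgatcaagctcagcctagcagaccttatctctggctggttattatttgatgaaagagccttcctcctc
Pnpla3: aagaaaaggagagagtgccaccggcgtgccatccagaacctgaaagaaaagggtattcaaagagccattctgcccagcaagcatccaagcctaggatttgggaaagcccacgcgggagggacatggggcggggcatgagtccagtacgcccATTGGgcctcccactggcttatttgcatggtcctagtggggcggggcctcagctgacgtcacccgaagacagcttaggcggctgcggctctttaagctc
Mlxipl upstream start: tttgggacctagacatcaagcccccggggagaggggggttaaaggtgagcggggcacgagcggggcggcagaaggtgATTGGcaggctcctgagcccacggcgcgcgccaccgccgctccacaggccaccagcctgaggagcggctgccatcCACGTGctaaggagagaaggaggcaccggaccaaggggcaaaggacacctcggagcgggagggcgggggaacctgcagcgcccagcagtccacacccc
Mlxipl downstream start: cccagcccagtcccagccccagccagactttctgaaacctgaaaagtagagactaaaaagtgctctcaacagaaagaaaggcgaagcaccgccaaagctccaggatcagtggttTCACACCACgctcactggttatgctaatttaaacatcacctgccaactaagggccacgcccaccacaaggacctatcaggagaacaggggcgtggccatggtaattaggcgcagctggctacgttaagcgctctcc
Fasn had CCAAT boxes from positions -90, -62 and -59, the last of which overlap on opposite strands. Gpam had a CCAAT box from -74 in the window shown, and Pnpla3 had one from -99. Another start of Gpam, with its window at chr19:55099478-55099727, had no match and is not shown. Of the 28 genes with an entry, 17 had a CCAAT box in at least 1 window, in 18 of 39 windows or 46.2%, while 33.8% of all 32851 windows had it. The E-box stood in 4 of the 39 windows, those of Elovl5, Lpin2, Mlxipl and Slc25a1, and in 6.02% of all windows. The sterol response element core was found in 1 of the 39, the downstream start of Mlxipl, and in 1.05% of all windows. Called and uncalled genes both held matches, which describe letters and not binding. Elovl3, Dgat1, Dgat2 and Agpat5 had no entry.

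Of the 31 genes tested, 12 were higher and 4 were lower in the liver tumors. The 12 were Acly, Slc25a1, Acaca, Fasn, Elovl2, Elovl7, Acsl3, Acsl4, Acsl5, Gpam, Lpin3 and Pnpla3, and the 4 were Agpat2, Dgat2, Srebf1 and Mlxipl. These are 38.7% higher and 12.9% lower, while over all 18567 genes 13.1% were called higher and 21.0% lower. Because the genes were chosen with earlier results of these data known, the shares describe this list and are not a test of it. The median log2 fold change was 0.37 over the 31 genes and -0.13 over all genes tested. Among the called genes, 8 were higher by 2-fold or more and none was lower by 2-fold or more in limma, against 7.80% and 6.84% of all genes, and at an unadjusted p under 0.05 the counts were 8 and 2. In 22 of the 31 the groups did not overlap, 15 with every tumor above and 7 with every tumor below the normal livers, where 51.8% of all genes did not overlap in either direction. In bulk tissue, fewer cells of a type and less RNA per cell cannot be told apart.

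**Figure D1:**
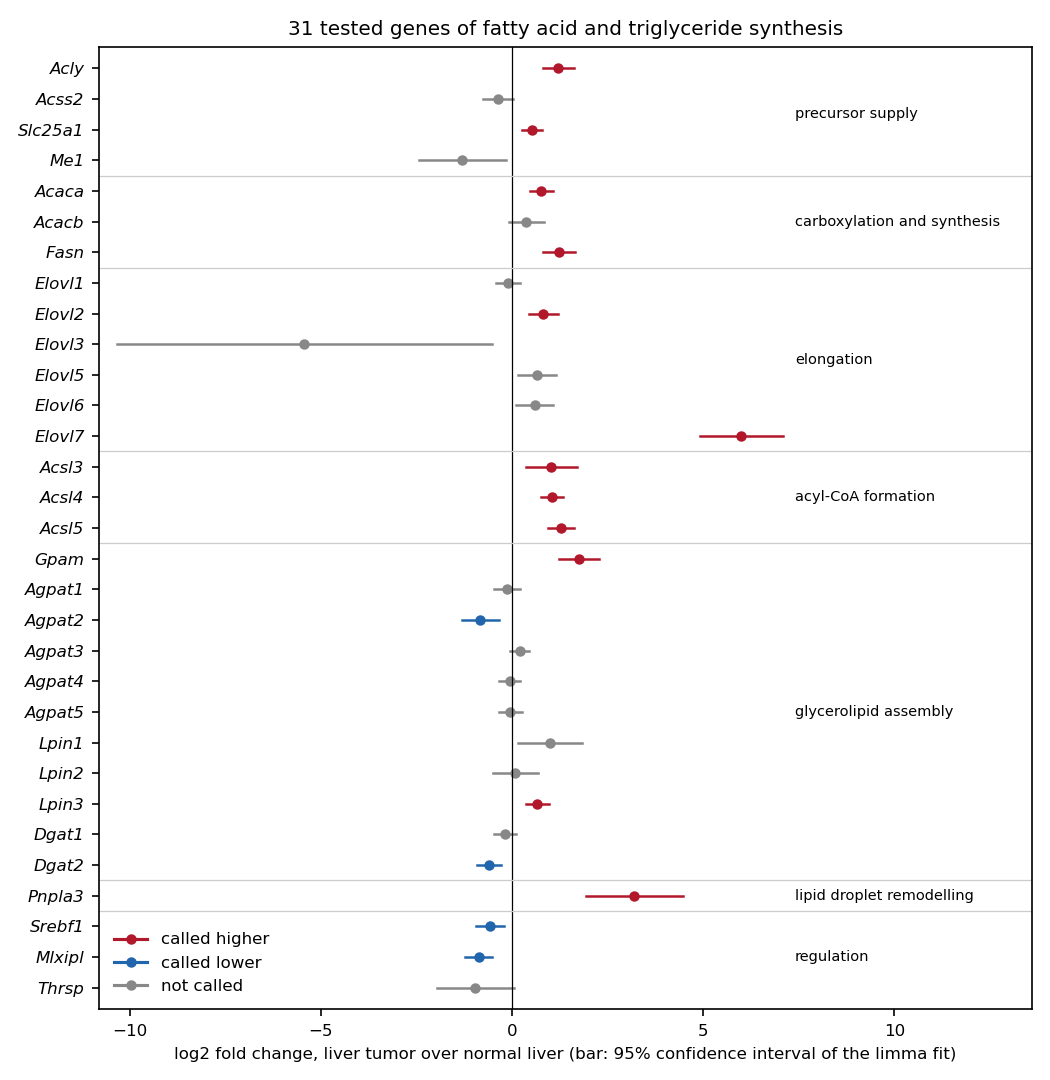
Log2 fold change of liver tumor over normal liver (x axis) for the 31 tested genes, in the order of the pathway; points are limma estimates from 3 normal livers and 3 liver tumors, bars their 95% confidence intervals, and colours the calls. The 12 genes called higher lie in every step except regulation, the 4 called lower in glycerolipid assembly and regulation, and Elovl3 has the widest interval, from -10.3 to -0.53. The point of Elovl7 is a fitted value against a group at background and not a measured fold.

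Transcripts of Acly and Slc25a1, on the main route to cytosolic acetyl-CoA, were up-regulated. Acly, ATP citrate lyase, had expression values of 76.8, 75.1 and 56.3 in the normal livers and 139, 162 and 178 in the tumors. It was 2.31-fold higher (log2 fold change 1.21 ± 0.17 SE, adjusted p = 0.00395), and the lowest tumor stood well above the highest normal liver. Slc25a1, the mitochondrial citrate carrier, measured 29.5, 29.7 and 27.2 in the normal livers and 38.4, 40.8 and 44.6 in the tumors. It was 1.43-fold higher (log2 fold change 0.52 ± 0.11 SE, adjusted p = 0.0154), again without overlap. Acss2, which makes acetyl-CoA from acetate, did not pass the test (log2 fold change -0.36 ± 0.16 SE, adjusted p = 0.136), although its tumors at 18.01 to 25.1 stayed just below the normal livers at 25.2 to 30.7.

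Me1, the cytosolic malic enzyme that supplies NADPH, was not called, and its samples varied more than those of the citrate route. It measured 24.3, 38.5 and 17.6 in the normal livers and 5.20, 15.0 and 14.1 in the tumors. Every tumor was below every normal liver, with tumor 1 lowest, but the log2 fold change of -1.30 ± 0.47 SE had an adjusted p of 0.0781. The 3 probes of the gene gave log2 fold changes from -1.38 to -1.29.

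Both the cytosolic carboxylase and fatty acid synthase were up-regulated. Acaca, acetyl-CoA carboxylase of the cytosol, measured 26.1, 32.5 and 28.3 in the normal livers and 47.8, 46.5 and 52.8 in the tumors. It was 1.69-fold higher (log2 fold change 0.76 ± 0.13 SE, adjusted p = 0.00668), and the 4 probes of the gene were each called higher, with log2 fold changes of 0.54 to 0.78. Those at chr11:84215093-84215152 and chr11:84215094-84215153 on mm9 overlap almost completely, so they are not separate readings of the gene. Fasn, the multifunctional enzyme that makes palmitate, measured 2.90, 3.75 and 2.77 in the normal livers and 7.37, 6.23 and 8.40 in the tumors. The difference was 2.34-fold (log2 fold change 1.23 ± 0.17 SE, adjusted p = 0.00404), and no tumor came near the range of the normal livers. Acacb, the carboxylase at the mitochondrial surface whose malonyl-CoA restrains fatty acid import, was not called (log2 fold change 0.37, 95% confidence interval -0.08 to 0.82, adjusted p = 0.178), and its groups overlapped at 11.4 to 15.5 and 14.2 to 19.97.

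Elongases gave a mixed picture. Of the 6 tested, Elovl2 and Elovl7 were called higher and none was called lower in limma, and Elovl3 had the largest difference in the other direction without passing the test. Elovl7, an elongase of long-chain fatty acids located at chr13:108214326-108287109 on GRCm38.p6, measured 0.0396, 0.0285 and 0.0703 in the normal livers, none of them well above background. In the tumors it measured 2.94, 4.33 and 1.60, well above background on each array. It was at least 24.0-fold higher (adjusted p = 0.000487), a lower bound set against the dimmest signals called well above background in the normal livers.

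Elovl2, which lengthens polyunsaturated fatty acids, measured 42.3, 58.7 and 49.6 in the normal livers and 101, 80.5 and 83.7 in the tumors. It was 1.77-fold higher without overlap (log2 fold change 0.82 ± 0.16 SE, adjusted p = 0.0118). Elovl5 and Elovl6, which lengthen polyunsaturated chains and palmitate, also had every tumor above every normal liver, but they stayed just short of the threshold. Elovl5 measured 65.0, 88.6 and 68.4 in the normal livers and 89.7, 122 and 139.9 in the tumors (log2 fold change 0.65 ± 0.21 SE, adjusted p = 0.0520). Elovl6 measured 9.73, 16.5 and 14.0 in the normal livers and 18.7, 19.3 and 21.3 in the tumors (log2 fold change 0.59 ± 0.21 SE, adjusted p = 0.0680). Elovl5 passed under 9 of 17 alternatives, among them leaving out tumor 1 (log2 fold change 0.83, adjusted p = 0.0228), quantile normalization (0.87, adjusted p = 0.0199) and spike-in scaling (0.88, adjusted p = 0.0336). Elovl6 passed under 4 of 17, among them leaving out normal liver 2 (0.76, adjusted p = 0.0476) and quantile normalization (0.73, adjusted p = 0.0277). Elovl1, an elongase of very long saturated chains, showed no detectable difference (log2 fold change -0.11, 95% confidence interval -0.42 to 0.20).

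Elovl3, at chr19:46131897-46135694 on GRCm38.p6, elongates saturated and monounsaturated chains, and it had the most negative log2 fold change of the 31 genes. It measured 104, 84.6 and 44.4 in the normal livers and 0.0468, 10.4 and 9.90 in the tumors, where tumor 1 was not well above background. All tumors were below all normal livers, and tumor 1 lay far below the other tumors. The log2 fold change was -5.43 with an SE of 2.05, a 95% confidence interval of -10.3 to -0.53 and an adjusted p of 0.0856. Without tumor 1 it was -2.85 with an adjusted p of 0.00429. With all 6 arrays it was also called with spike-in scaling (-5.21, adjusted p = 0.0106) and with normexp background correction (-4.24, adjusted p = 0.0166). The first 30 bases of the Elovl3 and Elovl7 probes are shown because the extreme values of the family rest on 1 probe each, which the array's design places at chr19:46209762-46209821 and chr13:109073556-109073615 on mm9.
Elovl3 probe: ggcctggtaggcgcttaataaatgtctttt
Elovl7 probe: atgatttgtctcaacggttaatgaacgctt
The part of the gene under these probes was not determined here.

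All 3 acyl-CoA synthetases of the set were up-regulated, by 2.04- to 2.43-fold. Acsl5, found at mitochondria and the endoplasmic reticulum, measured 22.3, 27.7 and 26.7 in the normal livers and 67.8, 55.5 and 62.8 in the tumors, 2.43-fold higher (log2 fold change 1.28 ± 0.14 SE, adjusted p = 0.00172). Acsl4, which prefers arachidonate, measured 19.6, 22.3 and 18.5 in the normal livers and 39.9, 42.7 and 41.9 in the tumors, 2.06-fold higher (log2 fold change 1.05 ± 0.12 SE, adjusted p = 0.00188). For both genes the tumors were close together and far above the normal livers. Acsl3, which sits on lipid droplets, measured 0.908, 1.35 and 0.706 in the normal livers and 2.37, 2.07 and 1.49 in the tumors, 2.04-fold higher (log2 fold change 1.03 ± 0.28 SE, adjusted p = 0.0325). Its groups were separated by a narrow gap, and the call was lost without normal liver 1, normal liver 3, tumor 1 or tumor 2, with log2 fold changes of 0.81 to 0.99 and adjusted p of 0.0825 to 0.0881.

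Within triglyceride assembly, Gpam and Lpin3 were up-regulated and Agpat2 and Dgat2 down-regulated among 11 genes tested. These shares, 18.2% higher and 18.2% lower, are near the 13.1% and 21.0% of all genes. The median log2 fold change of this step was -0.05. Gpam, the mitochondrial acyltransferase that starts glycerolipid synthesis, measured 2.75, 3.48 and 2.03 in the normal livers and 8.53, 8.19 and 10.6 in the tumors. It was 3.37-fold higher (log2 fold change 1.75 ± 0.22 SE, adjusted p = 0.00283), the other probe of the gene gave 3.56-fold, and both kept every tumor above the normal livers. At the next step, Agpat2, the acyltransferase that makes phosphatidic acid, measured 297, 295 and 213 in the normal livers and 119.8, 176 and 157 in the tumors. It was lower (log2 fold change -0.83 ± 0.20 SE, adjusted p = 0.0235) without overlap, and its 2 probes gave the same call. That call was lost without normal liver 1, normal liver 2 or tumor 1 (log2 fold changes of -0.75, -0.75 and -0.67, adjusted p of 0.0514 to 0.0786). The other acyltransferases of this step, Agpat1, Agpat3, Agpat4 and Agpat5, were not called, with log2 fold changes of -0.13, 0.20, -0.06 and -0.05.

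The lipins, which turn phosphatidic acid into diacylglycerol, differed from each other. Lpin3 measured 1.68, 1.67 and 1.35 in the normal livers and 2.46, 2.44 and 2.46 in the tumors, 1.58-fold higher (log2 fold change 0.66 ± 0.12 SE, adjusted p = 0.0102). Lpin1, which is also a transcriptional coactivator, measured 1.42, 1.80 and 3.11 in the normal livers and 4.65, 2.74 and 4.81 in the tumors. Its log2 fold change of 0.99 ± 0.35 SE had an adjusted p of 0.0707, and normal liver 3 lay above tumor 2. It passed without normal liver 3 (1.31, adjusted p = 0.0318) or without tumor 2 (1.25, adjusted p = 0.0484). Lpin2 gave a log2 fold change of 0.08 by its brighter probe and -0.50 by the other, neither called.

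Of the enzymes that close the triglyceride, Dgat2 was down-regulated and Dgat1 was not called. Dgat2, the acyltransferase tied to newly made fatty acids, measured 229.6, 285 and 282 in the normal livers and 169, 168 and 184 in the tumors. It was lower (log2 fold change -0.61 ± 0.13 SE, adjusted p = 0.0145) and the tumors lay close together below all normal livers. Without normal liver 2 its log2 fold change was -0.55 with an adjusted p of 0.0565. Dgat1 gave -0.18 (95% confidence interval -0.47 to 0.10). Mogat1, which acylates monoacylglycerol, was well above background on 1 of 3 arrays in each group and was not tested, with values of 0.133, 0.155 and 0.0648 in the normal livers and 0.196, 0.103 and 0.0724 in the tumors.

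Pnpla3, a lipid droplet protein with acyl hydrolase and transacylase activity at chr15:84167776-84189521 on GRCm38.p6, was up-regulated. It measured 0.293, 0.119 and 0.152 in the normal livers, of which 2 arrays were well above background, and 3.33, 0.946 and 1.31 in the tumors. The difference was 9.20-fold (log2 fold change 3.20 ± 0.53 SE, adjusted p = 0.00668), and every tumor was above every normal liver, with tumor 1 highest. The other probe of the gene, well above background on 1 array of the normal livers, measured 0.0743, 0.156 and 0.0256 there and 2.01, 1.97 and 1.55 in the tumors. That probe was also called higher (adjusted p = 0.00293), but the size of its difference is not given as a fold because 2 of its 3 values in the normal livers were not well above background. The array's design places the brighter probe at chr15:84019823-84019882 and the other at chr15:84016440-84016499 on mm9, and their first 30 bases show that they read separate stretches.
Pnpla3 brighter probe: gcaaactagtggaacagcagaaggattgaa
Pnpla3 other probe: tatccagtggctacaatgggcgacatccca
The probes share the direction and the call but not the order of the tumors.

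**Figure D2:**
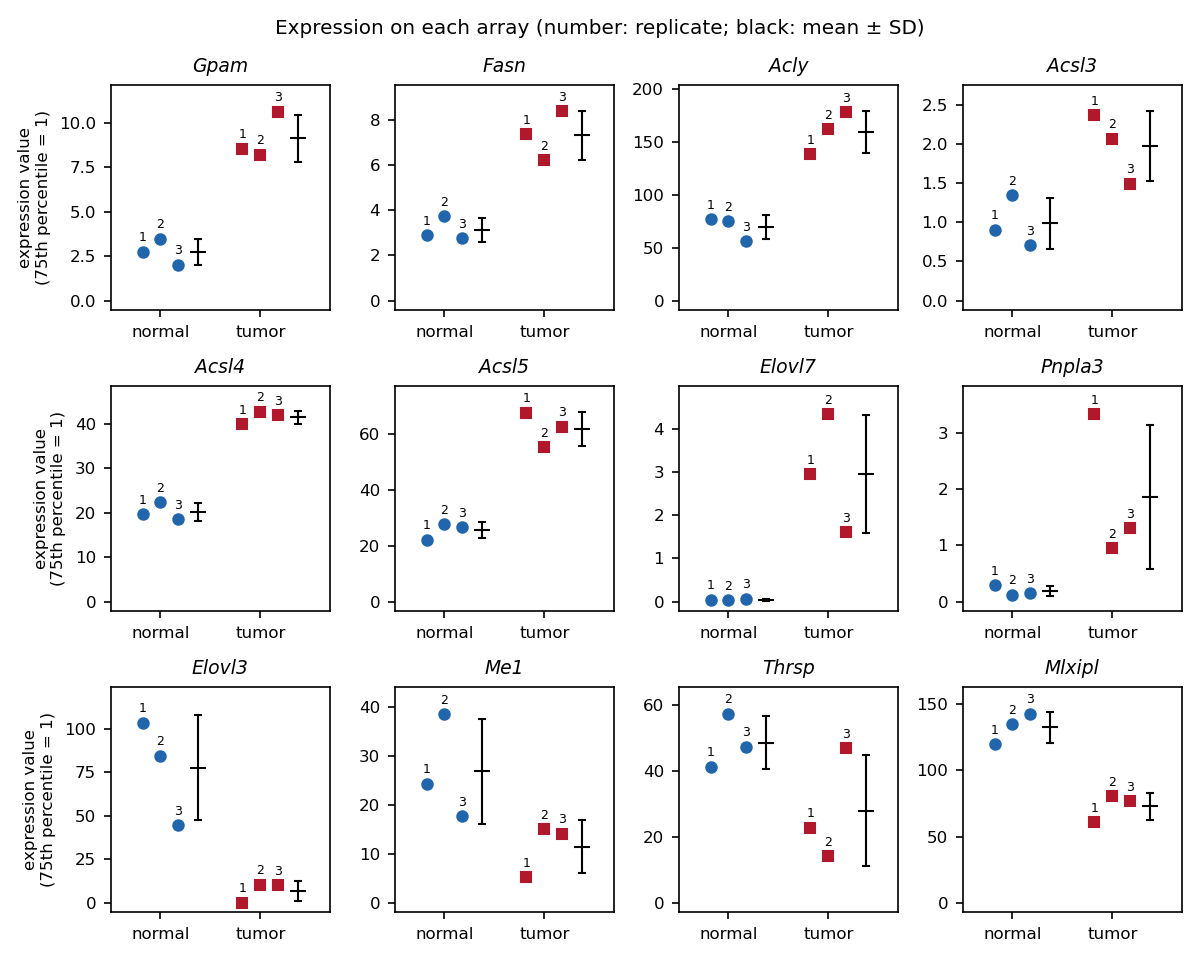
Expression value (y axis, 75th percentile of the array = 1, a separate linear axis for each gene) of 12 genes in 3 normal livers (circles) and 3 liver tumors (squares); numbers name the replicate and the black bars show mean ± SD. The tumors of Gpam, Fasn, Acly and the 3 Acsl genes stand above the normal livers, Elovl7 and Pnpla3 lie near 0 in the normal livers, and tumor 3 of Thrsp lies among the normal livers.

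Of the 3 regulators, Srebf1 and Mlxipl were called lower, but neither under every setting, and Mlxipl by 1 of its 2 probes. Srebf1 measured 5.91, 7.15 and 5.21 in the normal livers and 3.62, 4.31 and 4.22 in the tumors. It was lower (log2 fold change -0.58 ± 0.15 SE, adjusted p = 0.0303). The groups did not overlap, but the call was lost without any 1 of normal liver 1, normal liver 2 and the 3 tumors, with log2 fold changes of -0.63 to -0.46 and adjusted p of 0.0568 to 0.0878. In all, it was lost under 9 of 17 alternatives. Whether its probe reads both the Srebp1a and the Srebp1c transcript was not determined here. Thrsp, which encodes the lipogenic cofactor Spot 14, was not called (log2 fold change -0.96 ± 0.42 SE, adjusted p = 0.124). It measured 41.3, 57.4 and 47.3 in the normal livers and 22.8, 14.2 and 47.0 in the tumors, and without tumor 3 the log2 fold change was -1.42 with an adjusted p of 0.0148.

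Mlxipl measured 119.8, 135 and 143 in the normal livers and 60.8, 80.6 and 76.8 in the tumors, with every tumor below (log2 fold change -0.87 ± 0.15 SE, adjusted p = 0.00722). Another probe of the gene measured 5.06, 5.33 and 4.73 in the normal livers and 4.92, 6.09 and 4.65 in the tumors. There the groups overlapped (log2 fold change 0.04 ± 0.14 SE, adjusted p = 0.836), so the lower level rests on 1 of the probes. Among the 11 genes with several tested probes, Mlxipl was the only one whose probes gave different calls. The design places the brighter probe at chr5:135613705-135613764 and the other at chr5:135614195-135614252 on mm9, a short distance apart, and their first 30 bases are given because the call turns on which is read.
Mlxipl brighter probe: ggcatcttgcatgaatgtagatgtgtgtgt
Mlxipl other probe: tccgaatatattctagaactgggcatggtg
With the arrays scaled to the spike-in probes in place of the 75th percentile, Agpat2, Dgat2, Srebf1 and Mlxipl all kept a negative log2 fold change, of -0.60, -0.38, -0.35 and -0.65, but none was called (adjusted p of 0.0972 to 0.412). With that scaling the median over all genes tested was 0.10 in place of -0.13.

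**Figure D3:**
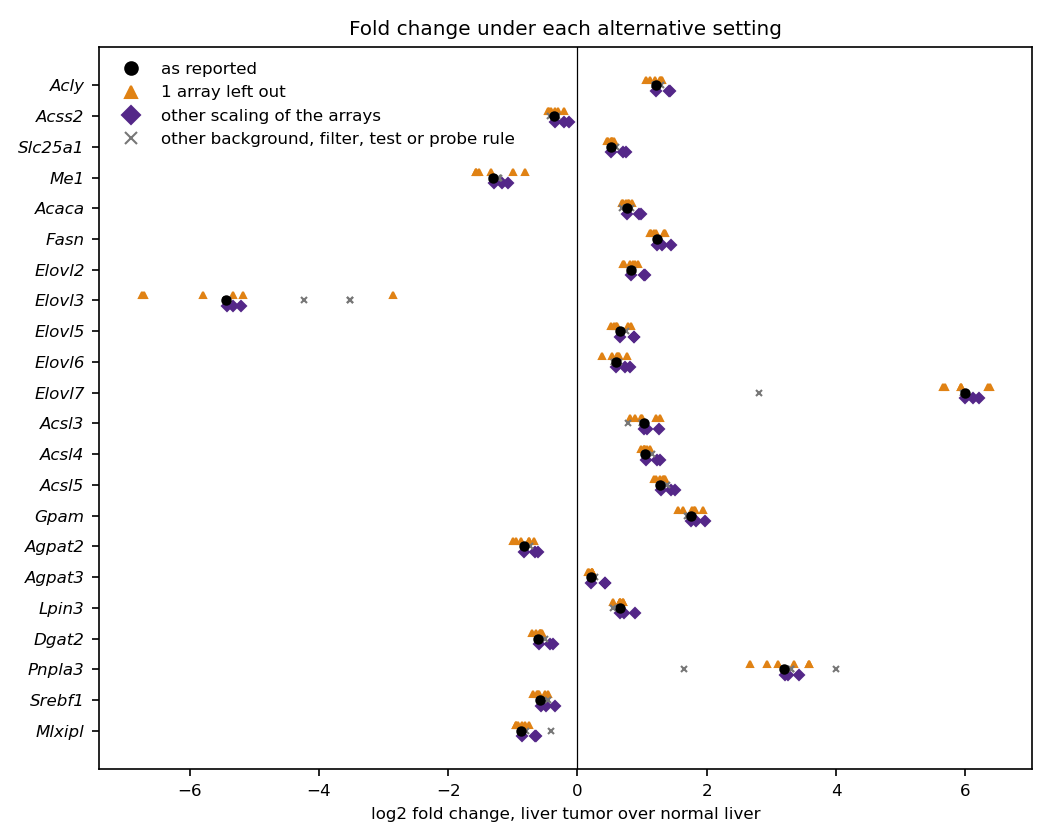
Log2 fold change of liver tumor over normal liver (x axis) for the 22 genes whose groups did not overlap, as reported (circles) and under each alternative (triangles, 1 array left out; diamonds, other scaling; crosses, other background correction, filter, test or probe rule). No point of these genes crosses 0, and Elovl3 spreads most among those below 0, from -6.75 to -2.85.

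Genes around the pathway, in lists made by function, gave the surroundings of these changes. Among 13 tested suppliers of NADPH and acetyl-CoA, 2 were higher and 6 lower (median log2 fold change -0.52). The 2 were both NADPH-making enzymes of the pentose phosphate pathway. G6pdx, its entry enzyme, rose from 1.36 ± 0.30 to 17.4 ± 3.7 (SD, n = 3 each; log2 fold change 3.67, adjusted p = 0.000219), and Pgd, 6-phosphogluconate dehydrogenase, from 6.11 ± 0.47 to 16.3 ± 3.9 (1.39, adjusted p = 0.00399). Cs, the mitochondrial citrate synthase, fell by 1.12 on the log2 scale (adjusted p = 0.00828).

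Enzymes of the same kinds outside the set went in both directions. In a list of other acyltransferases and acyl-CoA synthetases, 3 of 14 tested genes were higher and 7 lower (median log2 fold change -0.30). The list also holds Gpd1, which is neither kind of enzyme and is among the 7 lower (-0.42, adjusted p = 0.0323). Acsl1, the main acyl-CoA synthetase of hepatocytes, fell from 354 ± 29.2 to 124 ± 20.9 (log2 fold change -1.52, adjusted p = 0.00154), while Acsl3, Acsl4 and Acsl5 rose. Gpat2 (log2 fold change -1.86, adjusted p = 0.0158), Gpat3 (-0.65, adjusted p = 0.0202) and Gpat4 (-1.09, adjusted p = 0.00479), which share the reaction of Gpam, were lower while Gpam was higher. Gpat3, Gpat4 and Gpd1 were named after their values were seen. Mogat2 was higher (1.51, adjusted p = 0.0165). The lists' counts can be read against the 13.1% higher and 21.0% lower of all genes.

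Triglyceride breakdown and secretion had 3 genes higher and 4 lower of 15 tested (median log2 fold change -0.17). Abhd5, the coactivator of adipose triglyceride lipase, was higher (1.97, adjusted p = 0.0011), and Lipc, hepatic lipase (-2.97, adjusted p = 0.00758), and Ces1d, a triglyceride hydrolase (-1.59, adjusted p = 0.00244), were lower. In the list named phospholipid branch of diacylglycerol, 3 genes were higher and 6 lower of 13 (median -0.23). The list also holds genes that do not act on diacylglycerol itself, such as Pemt. Its counts therefore do not describe competition for diacylglycerol. Chka, choline kinase alpha, was higher (2.12, adjusted p = 0.000667), whereas Chpt1 (-2.37, adjusted p = 0.00922) and Pemt (-1.52, adjusted p = 0.015), which complete phosphatidylcholine, were lower.

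Of 22 tested genes that control Srebp1c and ChREBP, 3 were higher and 4 lower (median log2 fold change -0.09). Fbxw7, which targets nuclear Srebp for degradation (0.97, adjusted p = 0.0179), and Usf2 (0.93, adjusted p = 0.0127) were higher, and Prkaa2, a catalytic subunit of AMP-activated protein kinase, was lower (-0.86, adjusted p = 0.0117). The list named malonyl-CoA removal and fatty acid synthase partners also holds acyl-CoA thioesterases and acyl-CoA binding genes. It had 2 higher and 4 lower of 12 (median -0.24). Mlycd, which removes malonyl-CoA, was lower (-0.65, adjusted p = 0.00833). Acot1 (-2.48, adjusted p = 0.0368) and Acot7 (-1.24, adjusted p = 0.00952), acyl-CoA thioesterases, were also lower, and Aacs, acetoacetyl-CoA synthetase, was higher (0.72, adjusted p = 0.035). The partners of the elongases, which complete each elongation round, gave no call among 6 tested in limma (median -0.11), and 2 were lower at an unadjusted p under 0.05 in limma and 1 in the methods' t-test without pairing.

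**Figure D4:**
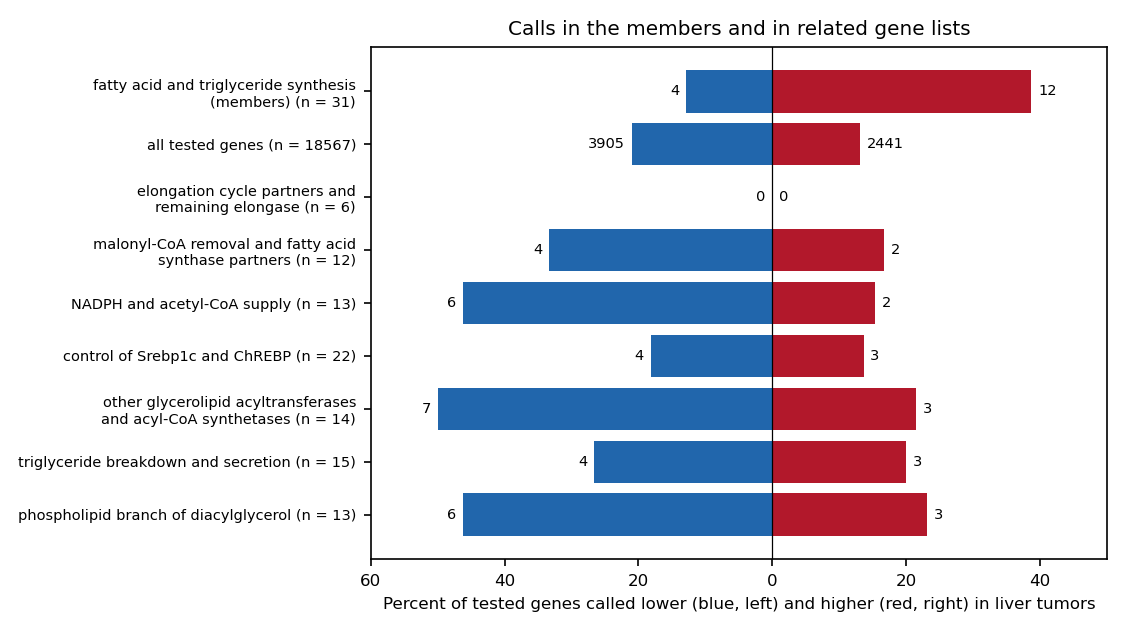
Percent of tested genes called higher (right) and lower (left) in liver tumors for the members, for all 18567 tested genes and for 7 related lists; bar labels are counts of genes and n the number tested. The members have 12 higher and 4 lower, and 6 of the 7 lists have more lower than higher calls with the scaling used here. With spike-in scaling the list on control of Srebp1c and ChREBP had 5 higher and 0 lower, and with quantile normalization 5 and 2.

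The cell content of the samples was read from marker genes. The summed expression value of 10 hepatocyte markers was 10233 to 11543 in the normal livers and 10246 to 10708 in the tumors, with 1 marker higher and 2 lower. Of 8 adipocyte markers, Adipoq, Plin1, Lep and Retn were not well above background on any array, while the list's sum was 2.997 to 3.91 in the normal livers and 7.17 to 12.7 in the tumors. Its higher member was Fabp4 (log2 fold change 1.77, adjusted p = 0.00342), which other cells also express. Fabp4 alone stood at 2.31 to 2.93 in the normal livers and 6.59 to 11.9 in the tumors. The higher sum therefore describes Fabp4 and not the adipocyte list. Macrophage markers were lower, 6 of 8 tested, with sums of 101 to 173 and 51.4 to 84.7. Stellate cell and fibroblast markers had 2 higher (Col1a1 and Reln) and 4 lower of 8, with sums of 85.8 to 103 and 27.8 to 47.9. Most of that sum was Dcn alone, at 75.8 to 96.4 in the normal livers and 17.8 to 37.7 in the tumors. The lower sum therefore describes Dcn and not the list. Of 6 endothelial markers 1 was lower, with sums of 53.5 to 65.3 and 47.2 to 50.3. Neutrophil sums were 4.96 to 7.41 and 5.31 to 17.6, lymphocyte sums 7.51 to 9.24 and 7.47 to 9.69, and cholangiocyte sums 2.33 to 2.93 and 1.89 to 2.19, with no marker called in limma. At an unadjusted p under 0.05, 1 neutrophil marker was lower and 1 lymphocyte marker higher. The part of these cells in the differences given above was not tested.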

How the data were processed

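Total RNA of 3 normal livers and 3 liver tumors was measured on SurePrint G3 Mouse GE arrays. For each array the authors deposited Feature Extraction output (version 10.7.3.1 per the file headers, while the submitters' processing notes name 12.0.3.1), whose processed signal intensity is background-subtracted. They also deposited a table of the signal as a ratio to the array's 75th percentile, which was used as an alternative and had no column without a sample. The 6 arrays had a 75th percentile of 124 to 183 in intensity.

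From the intensities, values were taken as log2(processed signal) minus log2 of the 75th percentile of all 62976 spots. Control and outlier-flagged spots were left out, spots of a probe were averaged, and a probe was kept where every array of either group called it well above background. This left 24901 of 55681 probes for limma 3.58.1 in R 4.3.3 (lmFit, eBayes, two-sided), and p-values were adjusted by Benjamini-Hochberg with a threshold of 0.05. With 3 against 3 samples, an exact permutation test of a single gene cannot go below p = 0.1 and was not used for calls. A gene was represented by its tested probe with the highest mean log2 signal. For a probe well above background on no array of a group, a lower bound of the fold was taken: each dim value was replaced by the dimmest well-above-background signal of its array if that was larger.

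Genes were named from RefSeq for GRCm38.p6 through the accession (27235 probes), the symbol (3581) or a synonym (565), and otherwise by the array's design (24300). Upstream sequences are from RefSeq on the same build, and probe positions from the array design on mm9. Tables were made in Python 3.11.15 (pandas 2.3.3, scipy 1.17.1) and figures with matplotlib 3.10.9. The members and the lists were chosen with earlier results of these data known. Every member is described, with each array's value for those called and for those with the highest and lowest levels. Of each list, up to 3 called genes with the largest change are named, plus Gpat3, Gpat4, Gpd1 and Mlycd, which were chosen after their values were seen. The fit was tested on simulated data. Alternatives tried were quantile, spike-in and non-control percentile scaling, normexp with an offset of 50, no filter and a stricter filter on dim probes, the table of ratios, a replicate block, a variance trend, the methods' t-test (unpaired and paired), the mean of a gene's probes and leaving out each array.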

Additional observations from a re-analysis of the deposited data

How the results depend on the processing

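The 12 genes called higher numbered 9 to 15 under the alternatives other than the paired test, and the 4 called lower 1 to 5. Of the 16 called genes, 7 kept call and direction under all 17 alternatives other than the paired test, all 7 of them higher (Acly, Acaca, Fasn, Elovl2, Acsl4, Acsl5 and Gpam) and none of the 4 lower. The stricter filter removed Elovl3, Elovl7 and Pnpla3 and gave no value for them. The lower count was 2 with quantile normalization, 1 with spike-in scaling, 1 without a filter on dim probes and 2 in the methods' t-test without pairing. Leaving out 1 array gave 11 to 13 higher and 1 to 4 lower, with 1 lower without normal liver 2 and 2 without normal liver 1. The median log2 fold change of the members was 0.60 with spike-in scaling, and 0.23 to 0.53 with 1 array left out, the highest without tumor 1. In the methods' paired t-test 0 were higher and 0 lower after adjustment, while at an unadjusted p under 0.05 there were 10 and 2. Among the higher genes, Elovl7, Pnpla3 and Acsl3 lost their calls in the methods' t-test without pairing (adjusted p = 0.0723, 0.18 and 0.0994), and Slc25a1, Lpin3 and Acsl3 without a filter on dim probes (0.0779, 0.0511 and 0.0931). Calls were gained by Elovl5 under 9 alternatives, Lpin1 under 5, Elovl6 under 4, Elovl3 under 3, and Agpat3 and Thrsp under 1 each. With normexp, which adds an offset, the log2 fold change of Elovl7 was 2.81 and that of Pnpla3 1.65. Genes that were not called and changed sign were Elovl1 (0.10 with quantile normalization, 0.12 with spike-in scaling, 0.0041 with normexp), Agpat1, Agpat4 and Dgat1 (0.10, 0.16 and 0.0449 with spike-in scaling), Agpat5 (0.0181 with quantile normalization, 0.18 with spike-in scaling, 0.0267 with normexp, and -0.14 to 0.00057 with 1 array left out) and Lpin2 (-0.21 with the mean of its probes, and -0.12 to 0.29 with 1 array left out). In the lists, spike-in scaling gave 5 higher and 0 lower for the control of Srebp1c and ChREBP, 3 lower for NADPH and acetyl-CoA supply, 2 lower for malonyl-CoA removal, 4 lower for the other acyltransferases and 3 lower for the phospholipid branch, and quantile normalization gave 5 higher and 2 lower for the control of Srebp1c and ChREBP. With 1 array left out, the lists' higher and lower counts were 2 to 5 and 2 to 3 (control of Srebp1c and ChREBP), 0 to 1 and 2 to 4 (malonyl-CoA removal), 1 to 2 and 4 to 6 (other acyltransferases), 2 to 3 and 3 to 6 (phospholipid branch), 2 and 4 to 6 (NADPH and acetyl-CoA supply), 3 and 3 to 5 (triglyceride breakdown) and 0 and 0 to 1 (elongation partners). The cause was not tested for any of these. Of the calls over all probes, 37.8% were higher, against 65.8% in spike-in scaling and 46.8% after quantile normalization. The replicate numbers are shared by the groups, and the correlations of deviations of same-numbered samples were 0.07, 0.13 and 0.05. With 3 samples a group, such values cannot tell whether same-numbered samples came from the same mouse, and the labels do not say. With the replicate block 13 members were higher and 4 lower, and not every sample correlated best with its own number.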

Other observations

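Over all tested probes, tumor 1 correlated with the normal livers at 0.9138 to 0.9157, and tumors 2 and 3 at 0.9428 to 0.9495. Across the 31 tested genes the tumors did not rank alike. Tumor 1 had the lowest value of the tumors for 13 genes, tumor 2 for 13 and tumor 3 for 5, and the median log2 deviation from the mean of the normal livers was 0.18 in tumor 1, 0.46 in tumor 2 and 0.51 in tumor 3. The median SD of the genes over the 3 samples of a group was 0.24 in the normal livers and 0.20 in the tumors on the log2 scale, where it was 0.16 and 0.18 over all genes tested.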
